A study of Homo sapiens with 12 samples.

Results

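Cohesin is a ring-shaped protein complex that holds DNA strands together and folds chromosomes into loops. The data on 9 of its genes are described here, chosen by symbol in the deposited tables: the ring subunits SMC1A, SMC3 and RAD21, the STAG1 and STAG2 subunits bound to the ring, and NIPBL, WAPL, PDS5A and PDS5B, which load, release or regulate it. The 5 tables used here name 4719 gene symbols in all, and 8 of the 9 cohesin genes appear in at least 1 table. Of all RefSeq protein-coding genes, 21.6% do so; that share includes genes these neurons may not express, and the cohesin genes were chosen with the tables known. WAPL is in none of them.

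The cells were neurons of a cortical kind, differentiated by induced NGN2 from the established human embryonic stem cell line WA01. The neurons carried a short hairpin RNA against TDP-43 or a scrambled hairpin for 7 days. Each group had 3 RNA-seq and 3 3' end-seq libraries, 12 in all, all from this single cell line, and the labels do not say whether replicates were separate cultures. TDP-43 binds RNA in the nucleus, and in amyotrophic lateral sclerosis and frontotemporal dementia affected neurons lose it from there. The study asked how its loss changes the place where transcripts are cleaved and polyadenylated. The values below are the authors' own comparisons, with no value per library, so the spread between replicates and the depth are unknown. Gene expression, the level of TARDBP and neuronal markers were not analysed here, so neither the strength of the knockdown nor the cell type was checked.

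In the cohesin ring, the long ATPase arms SMC1A and SMC3 are closed by RAD21, the subunit that separase cuts at cell division. STAG1 and STAG2 are alternative subunits that bind RAD21. NIPBL, with MAU2, loads the ring on DNA and drives loop extrusion, WAPL takes it off, and PDS5A and PDS5B bind it and help set how long it stays. Neurons no longer divide, and cohesin is known in them for its part in chromosome folding and gene regulation. Variants of NIPBL, SMC1A or SMC3 can cause Cornelia de Lange syndrome.

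SMC1A was the single cohesin gene whose transcripts were called shorter after TDP-43 knockdown, while SMC3, STAG1, PDS5A and PDS5B were called longer. The authors' deposited 3' end-seq table thus listed 5 of the 9 genes, at an adjusted p up to 0.05. It lists 9.47% of RefSeq protein-coding genes, but how many genes were tested is not known, and the cohesin genes were chosen with these results known. Of all 2220 genes in that table, 84.7% were called longer and 15.3% shorter, so 4 longer and 1 shorter is close to the split of the whole table. RAD21, STAG2, NIPBL and WAPL were not among the genes listed, which does not show that their polyadenylation was unchanged.

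The SMC1A gene (ENSG00000072501) lies on chromosome X, minus strand, from 53374149 to 53422728 in hg38. Its change of usage index was -0.197 in the authors' deposited table (adjusted p = 1.14e-195). The site that fell, at position 53374150, is 1 nt from the RefSeq end of the gene. The site that rose, at position 53379697, lies 5547 nt upstream of it, in the 3'UTR by the authors' class. By size, the change ranked 170 of the 339 genes called shorter, which is the median of that group. By adjusted p it ranked 25 of the 339. The sites of shortened genes lay a median of 9829 nt apart, and 59.3% of them had sites farther apart than those of SMC1A.

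The 4 genes called longer had changes between 0.139 and 0.230 in the authors' deposited table, against a median of 0.214 for all 1881 genes called longer. SMC3, the ring partner of SMC1A, had a change of 0.203 in the authors' deposited table (adjusted p = 5.37e-142). Its use moved 1412 nt downstream, to a site 4 nt before the RefSeq end on chromosome 10. In size, the SMC1A and SMC3 changes were nearly equal and opposite in direction. Each lay at or near the median of its own direction, 0.197 for genes called shorter and 0.214 for longer. PDS5B at 0.209 and MAU2 at 0.195 in the authors' deposited table were of similar size, so this is not particular to the pair.

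STAG1 had the smallest change of the 4, 0.139 in the authors' deposited table (adjusted p = 0.000771). Use moved 1165 nt downstream on chromosome 3, to a rising site at position 136336236, the RefSeq end of the gene. PDS5B had a change of 0.209 in the authors' deposited table (adjusted p = 4.34e-46), and its rising site was 1907 nt downstream of the falling site on chromosome 13. For SMC3, STAG1 and PDS5B, both sites lay at most 2118 nt before the RefSeq end.

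PDS5A differed from these in the distance between its sites. Its change was 0.230 in the authors' deposited table (adjusted p = 1.25e-94). The falling site, at position 39898014 on the minus strand of chromosome 4, lay at 51.5% of the gene's span, and the rising site was the RefSeq end at position 39822863. The sites were 75151 nt apart, a genomic distance that includes introns, and only 3.14% of the genes called longer had sites farther apart.

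**Figure D1:**
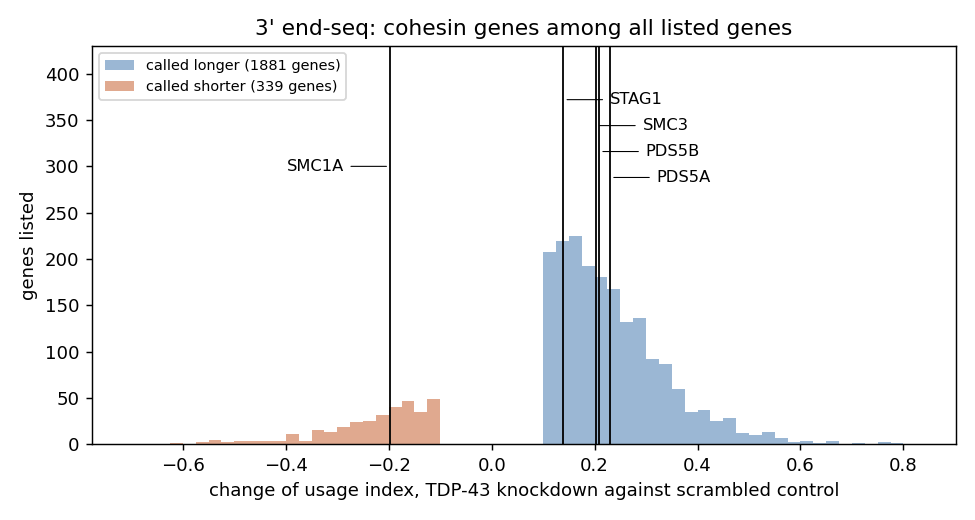
Histogram of the change of usage index over the 2220 genes listed from 3' end-seq, TDP-43 knockdown against scrambled control, with a vertical line at each of the 5 cohesin genes. SMC1A, at -0.197, lies on the side of the 339 genes called shorter, and the other 4 lie between 0.139 and 0.230 among the 1881 called longer.

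**Figure D2:**
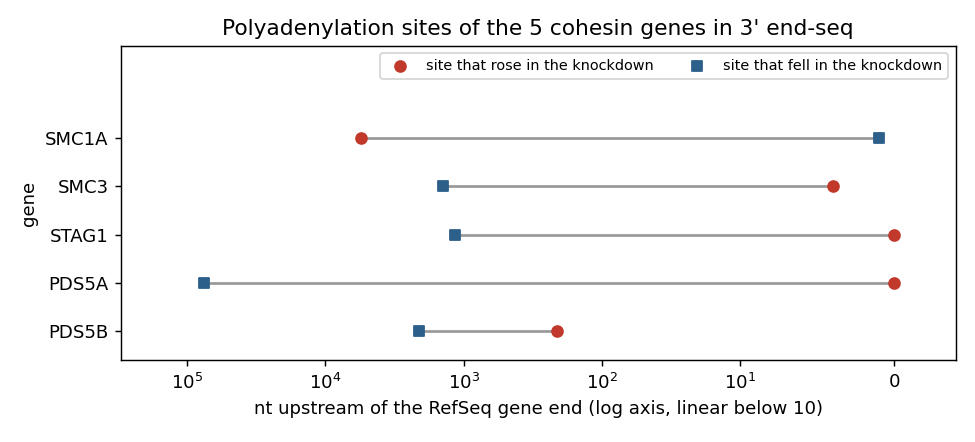
Distance of the polyadenylation site that rose (circles) and the site that fell (squares) in the knockdown from the RefSeq end of each gene, in nt upstream of that end, on a log axis that is linear below 10. The rising site is the upstream site for SMC1A and the downstream site for SMC3, STAG1, PDS5A and PDS5B.

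The rising SMC1A site was also classed as cryptic, meaning little used in control neurons. Its usage was 19.9% in the knockdown and 0.646% in scrambled control in the authors' deposited table, with 1 value per group and no p-value there. The knockdown usage was 30.8 times the control usage and 19.2 percentage points above it. SMC1A was the only one of the 9 genes with a cryptic site; the table names 1.94% of RefSeq protein-coding genes.

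What set the SMC1A site apart within the cryptic table was its low control usage. Its usage in the knockdown ranked 208 of 457 sites and 63 of the 144 sites in 3'UTRs, near the 3'UTR median of 19.0%. Its control usage was the fifth lowest of the 144, where the median was 3.60%. By the ratio of knockdown to control it ranked 13 of the 457 sites and 3 of the 144, against a 3'UTR median ratio of 5.63. No site in that table has a control usage above 5.99%, so these ranks compare sites that are all little used in control and are not a test.

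**Figure D3:**
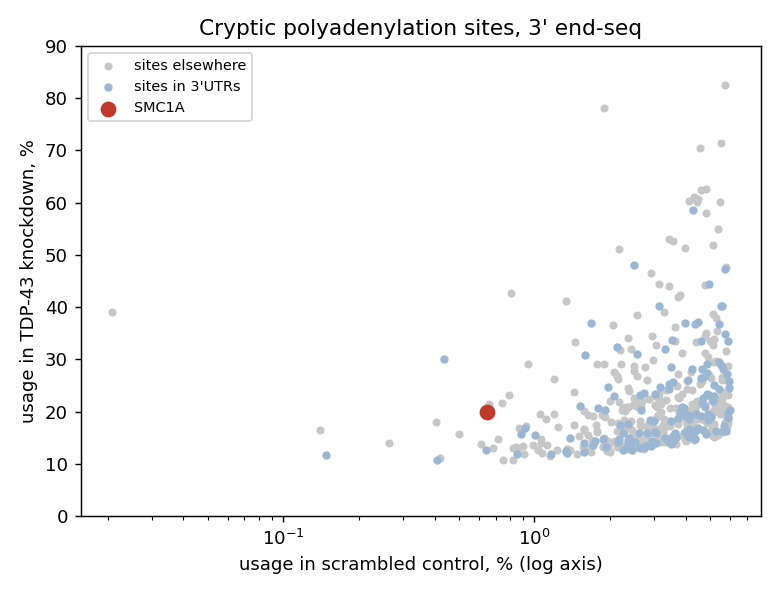
Usage of each of the 457 cryptic polyadenylation sites in TDP-43 knockdown (vertical axis, percent) against scrambled control (horizontal axis, percent, log scale), 1 pooled value per group and site. SMC1A, at 19.9% in the knockdown and 0.646% in control, sits to the left of most of the 144 sites in 3'UTRs and in the middle of their range of knockdown usage.

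The rising site was a cryptic site in a 3'UTR, as in SMC1A, in 19 of the 339 genes called shorter (5.6%) and in 84 of the 1881 called longer (4.47%). Knockdown usage of the 19 sites ran from 12.1% to 37.2% with a median of 23.4%, and control usage from 0.438% to 5.42% with a median of 3.57%. SMC1A had the second lowest control usage of the 19, after MPDU1 at 0.438% in the authors' deposited table, a gene named here after its values were seen. The distance between its sites was the seventh longest.

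The 6 genes nearest to SMC1A among these, by change of usage index, were GAB1, DIRAS1, ENSA, CHRNB2, GPCPD1 and PCDH9. GAB1, a signalling adaptor, had a change of -0.199 and DIRAS1, a small GTPase, of -0.205 in the authors' deposited table. ENSA, an inhibitor of protein phosphatase 2A, had a change of -0.183, and CHRNB2, a nicotinic acetylcholine receptor subunit, of -0.216 in the authors' deposited table. GPCPD1 had a change of -0.170 and PCDH9, a protocadherin, of -0.229 in the authors' deposited table. Control usage of these 6 sites ran from 2.72% for PCDH9 to 4.87% for ENSA in the authors' deposited table, each above the 0.646% of SMC1A. The likeness is in the size of the change in this single comparison.

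**Figure D4:**
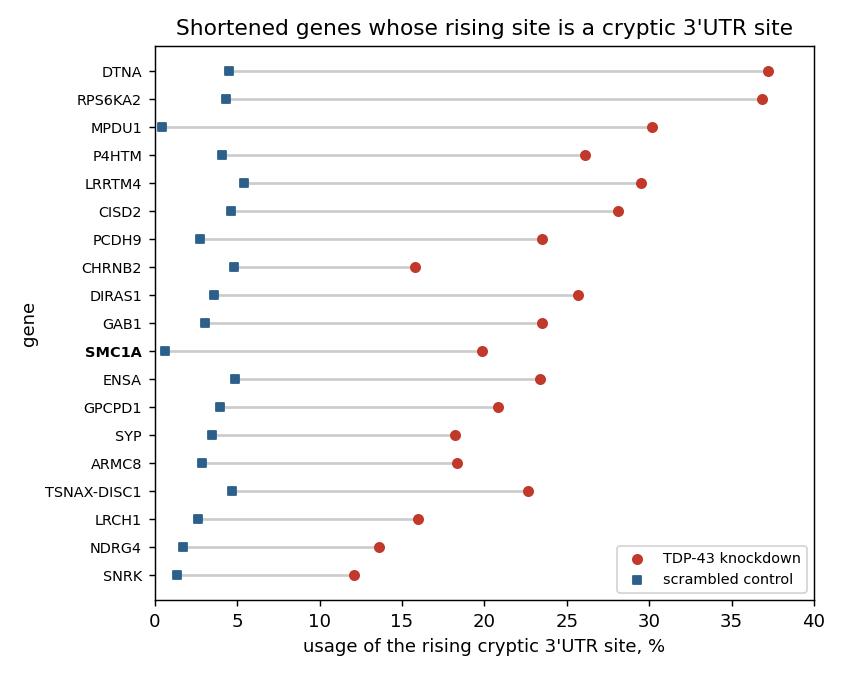
Usage of the rising cryptic 3'UTR site, in percent, in TDP-43 knockdown (circles) and scrambled control (squares) for the 19 shortened genes with such a site, ordered by the size of the change of usage index from the largest at the top. SMC1A, in bold, has 19.9% in the knockdown and 0.646% in control, the second lowest control value after MPDU1.

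From RNA-seq, polyadenylation changes were called for SMC3, NIPBL and PDS5A, all distal. The authors' deposited RNA-seq table thus listed 3 of the 9 genes; it lists 4.07% of RefSeq protein-coding genes, and 95% of its 841 genes were called distal. SMC3 had a change of 0.478 in the authors' deposited table (adjusted p = 0.0219). PDS5A had a change of 0.261 in the authors' deposited table (adjusted p = 0.0256), and NIPBL, the loader, 0.384 (adjusted p = 0.0440).

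These were small changes within that table. The median of the 799 distal genes was 0.765, and 24.4%, 14.6% and 5.51% of them had smaller changes than SMC3, NIPBL and PDS5A in turn. All 3 adjusted p-values lay above 0.01, and the median adjusted p of the distal genes was 0.000625. The RNA-seq index is on another scale than that of 3' end-seq, since its values reach 3.85, so the sizes are not set against each other. SMC3 and PDS5A were the genes called in both assays, longer in one and distal in the other. The RNA-seq table does not say which group was subtracted, and distal is read as more distal in the knockdown because 218 of the 226 genes named in both tables then have matching directions. SMC1A was not among the genes listed from RNA-seq.

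Splicing changes were called in 4 of the 9 genes, RAD21, STAG2, PDS5A and NIPBL, in 5 clusters of junctions that share a splice site. The authors' deposited cluster table lists 11.2% of RefSeq protein-coding genes. The 5 clusters held 15 junctions, of which 8 were annotated, 5 used an unannotated 5' splice site, 1 an unannotated 3' splice site and 1 joined annotated sites in an unannotated pair. Each junction has a change of its share of the cluster. Positive values are read as higher in the knockdown, because the STMN2 junction to the unannotated 3' splice site at position 79616822 on chromosome 8 has 44.9 points in the authors' deposited table and that gene is known for this junction after TDP-43 loss. The direction of each change below rests on that reading.

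RAD21, which closes the ring, gained use of an annotated splice site near the start of the gene. On the minus strand of chromosome 8, the annotated junction from 116866761 to 116874611 changed by 14.1 points in the authors' deposited table (adjusted p of the cluster = 8.17e-05). Its 5' splice site lies 165 nt from the RefSeq start of the gene. The junction with an unannotated 5' splice site 248 nt farther downstream changed by -13.0 points in the authors' deposited table. The other unannotated 5' splice sites, 301 and 492 nt downstream of the annotated one, had 0 and -1.0 points in the authors' deposited table.

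A second RAD21 cluster changed the other way. The junction from 116863234 to 116866586, with an unannotated 3' splice site, changed by 8.1 points, and the annotated junction from 116863259 to 116866586 by -8.1 points, in the authors' deposited table (adjusted p of the cluster = 0.0425). The 3' splice sites are 25 nt apart, the unannotated one farther downstream. The clusters are 175 nt apart. So an unannotated site lost share near the start of RAD21, and another gained share at the second cluster.

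STAG2, the X-linked ring-bound subunit, changed in a cluster of annotated junctions only. The junction from 124090764 to 124094018 changed by -16.6 points in the authors' deposited table (adjusted p of the cluster = 0.00275). In the authors' deposited table, the junctions inside it changed by 12.5 points (124090764 to 124090854) and 4.1 points (124090964 to 124094018). They enclose a stretch that the longer junction skips, at 91.6% of the gene's span. Its end coordinates differ by 110, and its exact length depends on whether both end bases are counted. Of all 2994 clusters listed, 88.8% held an unannotated junction, as did 4 of the 5 cohesin clusters.

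PDS5A and NIPBL had small changes. In PDS5A the annotated junction from 39844801 to 39845818 changed by -3.2 points and the annotated junction from 39842056 to 39844656 by 2.7 points in the authors' deposited table (adjusted p of the cluster = 0.00907). The junction with an unannotated 5' splice site, 41 nt from that of the second annotated junction, changed by 1.0 point in the authors' deposited table. The junction that skips the stretch between the annotated junctions, whose end coordinates differ by 145, changed by -0.6 points in the authors' deposited table. The cluster lies 52196 nt downstream of the falling polyadenylation site of PDS5A and 19193 nt upstream of the rising one, in the stretch that transcripts contain when they reach the distal site. In NIPBL the annotated junction from 37026327 to 37027359 on chromosome 5 changed by 3.7 points, and the junction with an unannotated 5' splice site 305 nt downstream by -3.7 points, in the authors' deposited table (adjusted p of the cluster = 0.0150).

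The largest change per cluster had a median of 6.4 points over all clusters listed. The STAG2 change of 16.6 points was larger than that of 85.2% of the clusters and the RAD21 change of 14.1 points larger than that of 80.4%. The second RAD21 cluster lay above 59.5% of the clusters, NIPBL above 29.0% and PDS5A above 24.5%.

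**Figure D5:**
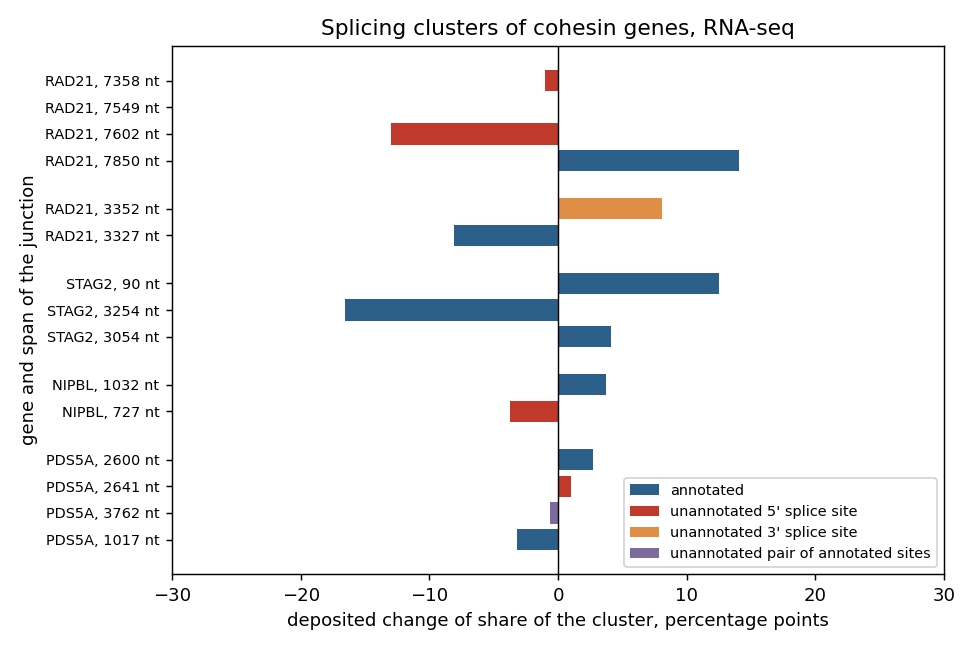
Deposited change of the share of each junction in its cluster, in percentage points, for the 15 junctions of the 5 cohesin clusters, labelled by gene and genomic span of the junction and coloured by annotation. The bars for RAD21 and STAG2 reach 14.1 and -16.6 points, while those of NIPBL and PDS5A stay within 3.7 points.

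By gene, PDS5A was listed for polyadenylation in both assays and for splicing, SMC3 and NIPBL in 2 tables each, and SMC1A in the 3' end-seq and cryptic tables, which share its site. RAD21 and STAG2 were listed for splicing alone, and STAG1 and PDS5B for 3' end-seq alone. SMC1A was not listed for splicing.

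Of 37 further genes of cohesin regulation and of the related SMC complexes, 10 were listed in at least 1 table, beside 21.6% of all RefSeq protein-coding genes. In 3' end-seq 5 of the 37 were longer and 1 shorter, and in RNA-seq polyadenylation 0 were listed. Splicing changes were listed for 5 and cryptic sites for 2. The shares of RefSeq protein-coding genes are 9.47% for 3' end-seq, 4.07% for RNA-seq polyadenylation, 11.2% for splicing and 1.94% for cryptic sites. The wider list was drawn up with earlier results of these data known, so its counts, and those of the smaller groups below, are a description to be read beside these shares.

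Among 19 cohesin regulators, 2 were listed. MAU2, the partner of NIPBL in loading, was called longer, with a change of 0.195 in the authors' deposited table (adjusted p = 8.47e-27), with use moved 997 nt downstream. In its splicing cluster an annotated junction changed by -7.9 points and one starting 4 nt away by 7.1 points in the authors' deposited table (adjusted p of the cluster = 0.0485). HDAC8, which removes acetyl groups from SMC3, had a cluster of 13 junctions in which an annotated junction changed by -15.3 points in the authors' deposited table (adjusted p of the cluster = 0.0112). CTCF, which halts cohesin at loop anchors, was not among the genes listed, nor were ESCO1 and ESCO2, which acetylate SMC3.

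Condensin, the SMC complex that compacts chromosomes at division, had 4 of 8 genes listed. NCAPG was longer at 0.240 and NCAPH shorter at -0.125 in the authors' deposited table (adjusted p = 0.000757 and 0.0354). In splicing, the annotated NCAPG2 junction from 158701938 to 158704724 changed by 19.6 points in the authors' deposited table (adjusted p of the cluster = 0.00262). In NCAPD3 annotated junctions had changes of 13.7 and -12.7 points in the authors' deposited table (adjusted p of the cluster = 0.0483).

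The SMC5-SMC6 complex, which acts in DNA repair, had 3 of 9 genes listed. NSMCE4A, its kleisin subunit, had the largest splicing change of any gene on these lists. The annotated junction from 121971069 to 121974004 changed by -36.6 points, and junctions with an unannotated 5' and 3' splice site inside it by 22.6 points and 14.0 points, in the authors' deposited table (adjusted p of the cluster = 0.00113). SLF2 was longer at 0.224 and SLF1 at 0.191 in the authors' deposited table (adjusted p = 9.41e-29 and 1.17e-16). The SLF2 sites lay 51247 nt apart, with the falling site at 1.77% of the gene's span. The rising SLF1 site lay 17299 nt past the RefSeq end of the gene. SLF1 also had a cryptic site at position 94697737 on chromosome 5, of intronic class by the authors but 116 nt past the RefSeq end of the gene. Its usage was 18.0% in the knockdown and 4.26% in scrambled control in the authors' deposited table. This cryptic site was not the rising site of SLF1. SMCHD1, an SMC-hinge protein known for X inactivation, was called longer, with a change of 0.171 in the authors' deposited table (adjusted p = 9.49e-27). The rising site of that call lay 6 nt before the RefSeq end of the gene. The cryptic site of SMCHD1 was a different one, 1897 nt past the RefSeq end. Its usage was 19.1% in the knockdown and 1.71% in scrambled control in the authors' deposited table.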

How the data were processed

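Per the labels' protocols, RNA was trizol-extracted and DNase-treated; RNA-seq used a stranded total RNA kit and 3' end-seq a QuantSeq REV kit, which primes on poly(A) and can prime at internal A-rich stretches. The genome build was hg38, and STAR, Salmon, SAMtools, fastp and DESeq2 were used in roles not stated, per the submitters' processing notes. No source used here names the callers. The authors deposited the changes of usage index and of intron share as a score, each p-value as an adjusted p-value per gene or cluster, and site usage as a fraction (shown as a percent), 1 per group. The number of introns per cluster is another deposited value. Replicates were combined by the authors, and the denominator of usage is not stated. All tables list called items only.

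The 6 per-sample columns of a table of gene values were left out, because their numbers match no label, and setting groups from TARDBP or column order would infer labels from values. The planned expression fit was not run.

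Genes were matched by symbol, with RefSeq synonyms (GRCh38.p14) as an alternative, and placed against RefSeq gene bounds. The share of protein-coding genes listed serves as background. Of the cryptic table, 2 of 459 lines repeated a site with slightly other values, and the first was kept. Ranks count items with a larger value; ranking and site parsing were tested on simulated data. All members and listed genes of 4 wider lists were named; 1 further gene, planned for these lists, is not reported here and is left out of their counts. Also named were the 6 genes most like SMC1A and the 3 cryptic 3'UTR sites on either side of it by knockdown usage. Members and lists were chosen with earlier results of these data known. Genome sequence was not used here. Python 3.11.15, numpy 2.4.6, pandas 2.3.3 and matplotlib 3.10.9 were used.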

Additional observations from a re-analysis of the deposited data

How the results depend on the processing

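Of 17 alternative settings, 11 left the count or rank within 1.5 times its value. Matching by RefSeq synonyms left each count of listed cohesin genes the same, as did matching by position in the gene for 3' end-seq, cryptic sites and splicing, which was chosen after seeing the data; the RNA-seq polyadenylation table gives no positions. With a change of usage index of at least 0.2, 3 in place of 5 genes were listed in 3' end-seq, without SMC1A at -0.197 and STAG1. At an adjusted p up to 0.01, 0 in place of 3 were listed from RNA-seq polyadenylation. With knockdown usage of at least 20%, 0 in place of 1 were listed among cryptic sites, since SMC1A had 19.9%. With a largest change of at least 10 points, 2 in place of 4 were listed for splicing. These follow from the stricter limits, which remove listed items. The SMC1A site ranked 208 of 457 by knockdown usage, 63 of 144 within 3'UTR sites and 13 of 457 by the ratio of knockdown to control. Raw ranks were compared, so the shorter list of 144 sites alone can count a rank as moved. No paired analysis was possible because the tables used hold no value per library, and leaving out replicates was not run for the same reason; nor were the alternatives for expression. Depth is not known, so no limit on undetected changes can be given.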

Other observations

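The change of usage index in 3' end-seq has no stated scale, but for sites in both tables it can be set beside the usage values. Over 199 genes whose rising site was a cryptic site, the size of the index change in hundredths and the gain in usage in percentage points differed by a median of 0.466 points, and by up to 5 points for 196 of them. For SMC1A the values were 19.7 and 19.2. Both come from the same libraries, so they are not independent measurements.

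By knockdown usage, the 3'UTR cryptic sites next above SMC1A were those of PHKB at 20.3%, STK24 at 20.2% and LUC7L3 at 20.03%, and next below DROSHA at 19.7%, KCNC1 at 19.6% and HNRNPR at 19.6% in the authors' deposited table. LUC7L3, DROSHA and HNRNPR encode RNA-processing proteins, while PHKB, STK24 and KCNC1 are not described here. These sites are neighbours by usage alone, and a link by function was not tested. Control usage of these 6 sites ran from 3.80% for LUC7L3 to 5.99% for PHKB in the authors' deposited table, against 0.646% for SMC1A.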
